A study of Mus musculus with 48 samples.

Results

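The comparison described here set DKO against WT preadipocytes at day 6 of induced browning, and its members are all genes that passed a filter on low counts in these 6 libraries, 14694 of the 55450 genes in the table. DKO cells lack Hmgn1 and Hmgn2 (Hmgn1-/- Hmgn2-/-), WT cells are wild type, and 3 libraries represent each genotype. Both genotypes are of the C57BL/6 strain, and the cells were isolated from inguinal white adipose tissue (iWAT) of mice aged 8 to 12 weeks. All 6 cultures received the same treatment. They were induced 2 days after confluence with insulin, dexamethasone, IBMX, T3 and rosiglitazone for 4 days and were then kept in insulin and T3, so that day 6 lies within the maintenance phase. The mice were male, and the study calls its replicates biological. How many mice were combined in a library and whether the 3 libraries of a genotype come from separate isolations are not given in the sources used here, and p-values measure the spread between these libraries. The animals lacked the proteins throughout life, and differences that arose before and after isolation of the cells cannot be told apart. The whole series holds 48 such libraries, 24 of preadipocytes and the others of mouse embryonic fibroblasts (MEFs), and the question was which genes differ between genotypes while white preadipocytes turn into brown-like adipocytes.

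HMGN proteins bind nucleosomes without sequence specificity, compete with linker histone H1 and are found mainly at enhancers and promoters. During browning a white preadipocyte leaves the cell cycle, takes down its fibroblast matrix and accumulates lipid, and it then switches on mitochondrial and thermogenic genes. The hallmark of the thermogenic state is UCP1, an inner membrane protein that lets protons return to the mitochondrial matrix without making ATP, so that the energy of fatty acid oxidation is released as heat. PPARG drives the fat cell programme as a whole, and PPARA with its coactivator PGC-1α (Ppargc1a) drives the genes of fatty acid oxidation.

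The WT libraries held 24974448 to 27052150 counts and the DKO libraries 21384326 to 24979454. The first principal component of the log2 values held 59.2% of the variance and placed the WT libraries between -39.4 and -25.6 and the DKO libraries between 20.3 and 41.3. Mitochondrially encoded transcripts took 6.80 to 7.41% of the counts of a WT library and 8.22 to 9.50% of a DKO library, and the 10 most abundant genes took 10.6 to 11.4% and 13.7 to 15.4%. Markers of other cell types were read as sums of CPM (counts relative to the library total, after scaling with edgeR's TMM factors over the 6 libraries). Macrophage markers, of which 20 of 24 were tested, summed to 8023 to 13090 CPM in WT and 2722 to 6575 CPM in DKO libraries, and their defining genes Adgre1 and Mrc1 were present in all libraries. Endothelial markers summed to 143 to 239 CPM in WT and 42.3 to 127 CPM in DKO libraries, and Schwann cell markers to 57.6 to 64.7 and 19.4 to 40.8 CPM. No endothelial marker was called by the rule given below, and 7 of the 9 tested were lower in DKO cells. Of 9 tested Schwann cell markers 4 were called lower and 1 higher, and 1 of these calls held without any 1 library. Pericyte markers overlapped between genotypes (644 to 735 and 698 to 909 CPM), and the lymphocyte and mast cell and the epithelial lists each summed to less than 1 CPM in every library, with no gene passing the filter. In bulk RNA fewer cells of a type and less RNA per cell cannot be told apart, and the part of these cell types in the results was not tested.

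The targeted genes checked the labels. Hmgn2 (chromosome 4, 133964738 to 133968650, mm10, minus strand) stood at 99.5, 110 and 102 CPM in the WT libraries, and no DKO library held more than 1 count of it (edgeR adjusted p = 1.05e-07). Hmgn1 (chromosome 16, 96120618 to 96127729, minus strand) was present in all libraries, at 108, 107 and 102 CPM in WT and 84.6, 88.7 and 83.0 CPM in DKO cells, and its log2 difference of -0.31 ± 0.07 (SE) did not reach the fold change required for a call. Counts per gene do not show which exons the DKO reads come from, so that the Hmgn1 value does not check the deletion. Among the relatives, Hmgn3 was 23.5, 17.6 and 18.6 CPM in WT and 13.1, 12.8 and 11.2 CPM in DKO cells (log2 -0.69 ± 0.13, edgeR adjusted p = 0.0112), and the groups did not overlap. This call was lost without WT replicate 1, when the fold change fell below the threshold (largest adjusted p without any 1 library 0.0476). Hmgn5 differed by -0.11 ± 0.09.

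A gene was called when edgeR's quasi-likelihood test gave a Benjamini-Hochberg adjusted p under 0.05 and the fold change was at least 1.5. By this rule 1699 of the 14694 genes differed (11.6%), of which 739 were higher in DKO cells (5.03%) and 960 lower (6.53%). The median log2 difference over all tested genes was -0.01. The ranges of the genotypes in CPM were separate for 42.8% of all genes, which is the share against which separated groups of a single gene are to be read. The called genes were 674 higher and 858 lower among 12841 protein-coding genes. Processed pseudogenes leaned lower (14 higher and 64 lower of 803). The number of calls rested strongly on single libraries, since it fell to 720 without WT replicate 3, to 884 without DKO replicate 3 and to 1115 without WT replicate 1. Scaling to library size alone moved the median of all genes by -0.112 and the share of higher genes among calls from 43.5% to 28.8%, with 502 higher and 1244 lower.

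**Figure D1:**
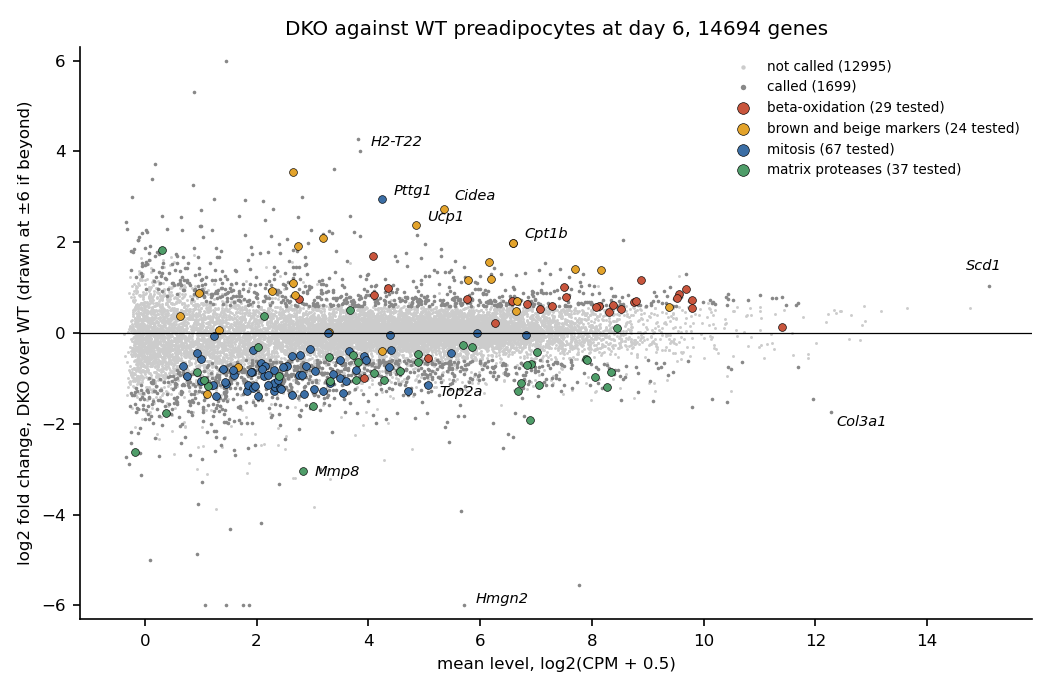
Log2 fold change, DKO over WT (vertical axis), against the mean level as log2(CPM + 0.5) (horizontal axis) for 14694 genes in 3 DKO and 3 WT libraries at day 6, with 1699 called genes in dark grey and 4 gene lists in colour. Genes of beta-oxidation and brown and beige markers lie mostly above 0, mitosis genes and matrix proteases mostly below it, and Pttg1 lies at 2.95 apart from the other mitosis genes.

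The genes that mark brown and beige adipocytes were higher in DKO cells. Of 24 tested members of this list, 15 were called higher and Epsti1 was called lower, and the median log2 difference was 1.02. Ucp1 stood at 7.42, 9.91 and 10.1 CPM in the WT libraries and at 41.9, 53.8 and 46.6 CPM in the DKO libraries. The lowest DKO library was thus above the highest WT library, and the log2 difference was 2.38 ± 0.14 (edgeR adjusted p = 0.00018). Cidea, which encodes a lipid droplet protein that marks brown fat, rose from 9.20, 11.5 and 11 CPM to 66.1, 39.7 and 104 CPM (log2 2.72 ± 0.37, edgeR adjusted p = 0.00884), with a wider spread among DKO than among WT libraries, and its call was lost without WT replicate 3 (adjusted p = 0.0506). Elovl3, an elongase of very long chain fatty acids, rose from 124, 200 and 149 CPM to 364, 511 and 365 CPM (log2 1.39 ± 0.21).

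Other thermogenic members moved alongside. Cox7a1, the muscle and brown fat form of a cytochrome oxidase subunit, went from 36.6, 55.1 and 40.4 CPM to 91.6, 94.8 and 117 CPM, and Kcnk3, a potassium channel of brown adipocytes, from 29.5, 37.6 and 40.9 CPM to 87.8, 79.1 and 150 CPM. Cpt1b, described below, and Fabp3, Plin5, Aspg, Pdk4, Cox8b, Cited1, Clstn3 and Letmd1 were called higher too, with log2 differences from 0.70 (Letmd1) to 2.09 (Aspg). Ear2, an RNase of the eosinophil family, had the highest log2 difference on the list (3.54 ± 0.66), at 1.3, 0.546 and 0.891 CPM in WT and 19.3, 4.48 and 8.12 CPM in DKO libraries, and this call was lost without DKO replicate 3 or either of WT replicates 2 and 3 (adjusted p up to 0.0853). Dio2, which converts T4 into active T3 in brown fat, had means of 9.27 (WT) and 9.38 CPM (DKO), and the sign of its difference turned when scaled to library size alone (log2 0.02 to -0.09). The number of members called higher was 10 without WT replicate 3 and 12 to 17 without each of the others, and 8 of the 16 calls of the list held without any 1 library. Kcnk3 (adjusted p = 0.0547) and Cited1 (0.0561) were lost without WT replicate 3, Cox8b (0.0603) and Letmd1 without DKO replicate 3, Epsti1 without either of these (0.0639), and Clstn3 without any library but DKO replicate 3 (up to 0.122).

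**Figure D2:**
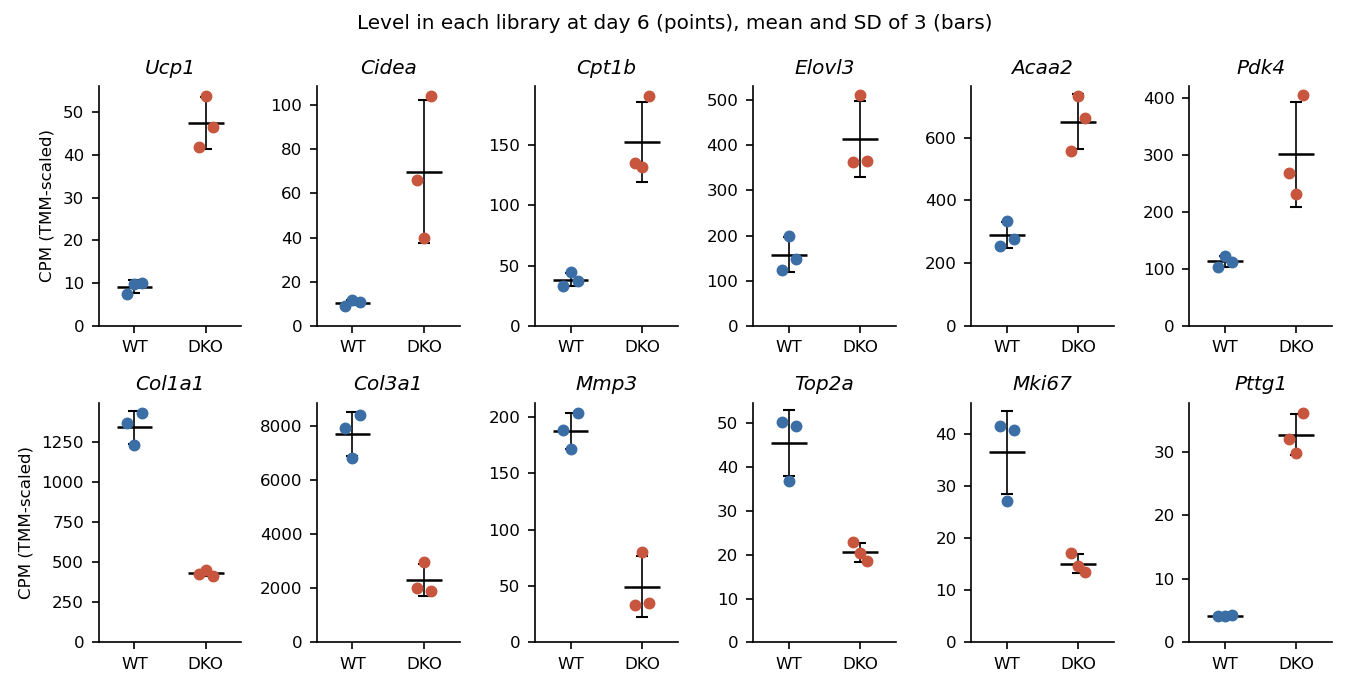
CPM of 12 genes in each of 3 WT and 3 DKO libraries at day 6 (points), with the mean and SD of 3 libraries (bars), each panel on its own linear axis from 0. Ucp1, Cidea, Cpt1b, Elovl3, Acaa2, Pdk4 and Pttg1 are higher in all DKO libraries, and Col1a1, Col3a1, Mmp3, Top2a and Mki67 are lower.

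The regulators of the thermogenic programme moved less than its effectors. Of 24 tested, 7 were called higher, with a median log2 difference of 0.47. Ppara was 21.9, 29.1 and 31.7 CPM in WT and 61.9, 63.2 and 103 CPM in DKO cells (log2 1.47 ± 0.24, edgeR adjusted p = 0.0111). Ppargc1a rose from 23.4, 22.1 and 23.9 CPM to 34.6, 36.8 and 48.6 CPM (log2 0.79 ± 0.13, edgeR adjusted p = 0.00696). In both genes the groups did not overlap. The mitochondrial deacetylase Sirt3 (log2 0.79) and the nuclear receptor Esrrg (log2 1.67) were called higher, and so were Mecom, Nrg4 and Fgf21, whose calls were lost without WT replicate 3 or DKO replicate 3 (adjusted p up to 0.0926). The number was 4 without either library. Pparg was 120, 135 and 123 CPM in WT and 153, 199 and 166 CPM in DKO cells, a log2 difference of 0.45 ± 0.11 that lay below the fold change required (edgeR adjusted p = 0.0244). Ebf2 (log2 0.39) and Cebpa (log2 0.14) were not called, and of 31 adipogenic transcription factors 2 were called higher (Ddit3 and Stat5a) and Klf4 lower. Stat5a was lost without WT replicate 1, DKO replicate 2 or DKO replicate 3, and Klf4 without WT replicate 3 or DKO replicate 3 (adjusted p up to 0.0506).

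Genes of lipid storage were higher in DKO cells over a wide range of levels. General adipocyte markers had 11 of 30 tested members called higher and a median of 0.56, and fatty acid and triglyceride synthesis had 13 of 25 called higher and a median of 0.59. Scd1, the stearoyl-CoA desaturase that makes monounsaturated fatty acids, had the highest difference in CPM of any called gene and went from 19663, 26492 and 23377 CPM to 42835, 47670 and 51425 CPM. The groups did not overlap and the log2 difference was 1.03 ± 0.16 (edgeR adjusted p = 0.00629). With quantile normalization in limma-voom Scd1 was not called (adjusted p = 0.513). That scaling gives genes of equal rank equal values in all libraries. It can thus remove a difference in a gene this abundant, and the result does not decide whether Scd1 differs.

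Dgat2, which adds the last acyl chain of a triglyceride, rose from 126, 146 and 126 CPM to 375, 281 and 327 CPM (log2 1.31 ± 0.12, edgeR adjusted p = 0.00154). Pck1, which supplies the glycerol backbone in fat cells, rose from 10.6, 17.0 and 11.1 CPM to 50.7, 41.1 and 59.3 CPM. Slc2a4, the insulin-responsive glucose transporter GLUT4, rose from 105, 146 and 121 CPM to 219, 233 and 295 CPM. All 3 kept non-overlapping groups.

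Some well-known adipocyte genes were not called. Fabp4 had a log2 difference of 0.55, Lpl of 0.17, Cd36 of 0.34 and Adipoq, the gene of adiponectin, of 0.20, beside the list median of 0.56. Adipoq overlapped between genotypes, at 990.5, 1213 and 1020 CPM in WT and 1044, 1537 and 1125 CPM in DKO cells. Among lipid droplet proteins 8 of 20 were called higher, Plin2, Plin4 and Plin5 and the hormone-sensitive lipase Lipe among them, whereas Plin1 (log2 0.50) and Cidec (log2 0.67) were not. This number was 2 without WT replicate 3 and 13 without WT replicate 2, and Plin2 (adjusted p up to 0.0822), Plin4 (0.0507) and Lipe (0.0621) were lost without WT replicate 3. The number of general adipocyte markers called was 4 without WT replicate 3 and 17 without WT replicate 2. It was 5 in 1 fit over all days. The calls in synthesis ran from 7 without WT replicate 3, and were 8 without WT replicate 1, DKO replicate 2 or DKO replicate 3, to 14 without WT replicate 2, and were 8 when scaled to library size alone.

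Fatty acid beta-oxidation held the highest share of calls among the metabolic lists, with 20 of 29 tested genes higher and Cpt1c lower, and a median of 0.70. Cpt1b, the muscle and brown fat form of the carnitine palmitoyltransferase that admits fatty acids to mitochondria, rose from 33.5, 44.6 and 37.1 CPM to 135, 132 and 191 CPM (log2 1.99 ± 0.17, edgeR adjusted p = 0.00169). Its relatives did not rise with it. Cpt1a, the liver form, was 41.5, 33.7 and 42.7 CPM in WT and 28.6, 29.1 and 22.4 CPM in DKO cells (log2 -0.56 ± 0.13, below the fold change required), and Cpt1c, the neuronal form, fell by 0.99 on the log2 scale.

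Within the mitochondrial spiral the thiolase Acaa2 rose from 256, 336 and 277 CPM to 557, 733 and 663 CPM (log2 1.17 ± 0.14, edgeR adjusted p = 0.00351). The trifunctional protein subunits Hadha (log2 0.87) and Hadhb (log2 0.97), the dehydrogenases Acadm (log2 0.78) and Acadvl (log2 0.72) and the thioesterase Acot2 (log2 1.69) were called higher. Of the 21 calls, 13 held without any 1 library. The number called higher was 14 without WT replicate 3, and 15 without WT replicate 1 or DKO replicate 3. Peroxisome genes moved in the same direction, with 10 of 44 tested genes higher, the acyl-CoA oxidases Acox2 and Acox3 among them. Catabolism of branched-chain amino acids did so too, with 6 of 25 higher. Without WT replicate 3 the peroxisomal count was 6, and it was 16 without WT replicate 2. The branched-chain count was 10 without WT replicate 2 and 12 without DKO replicate 1.

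The TCA cycle and pyruvate entry had 17 of 32 tested genes called higher and a median of 0.60. Citrate synthase (Cs) rose from 915, 1064 and 968 CPM to 1549, 1779 and 2007 CPM (log2 0.86 ± 0.13, edgeR adjusted p = 0.00519). The enzymes that switch pyruvate dehydrogenase moved in unlike ways. The kinases Pdk4 (104, 123 and 113 CPM in WT, against 268, 231 and 406 CPM for DKO, log2 1.41) and Pdk2 (log2 0.91), which turn it off, were called higher, as was the phosphatase Pdp2 (log2 0.81), whereas the phosphatase Pdp1 was called lower (log2 -0.64). Pdk1 (log2 0.36) was not called. The number called higher was 11 when scaled to library size alone and 12 to 24 without 1 library, and Pdp1 was lost without DKO replicate 3 or either of WT replicates 1 and 3 (adjusted p up to 0.0628).

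Respiratory chain genes had small differences that nearly all pointed up. All 37 tested subunits of complex I had a positive difference, between 0.34 and 0.67 on the log2 scale, and 34 had an adjusted p under 0.05, yet only 7 reached the fold change required, Ndufv1, Ndufs1 and Ndufa9 among them. Scaled to library size alone none was called, with a median of 0.39, and 24 were called without WT replicate 2, 17 without DKO replicate 1, 3 without WT replicate 1 and 2 without WT replicate 3 or DKO replicate 3. Ndufv1 was lost without WT replicate 3 (adjusted p = 0.0554) and Ndufs1 without WT replicate 1 or DKO replicate 3. Complexes II and III had 6 of 14 called higher, complex IV had 3 of 16 (Cox7a1, Cox8b and Cox5a) and ATP synthase had Atp5b of 17, at 2044, 2493 and 2221 CPM in WT and 2989, 3744 and 3656 CPM in DKO cells. These counts moved likewise, to 11, 9 and 5 without WT replicate 2, and Atp5b was lost without WT replicate 1, WT replicate 3, DKO replicate 2 or DKO replicate 3 (adjusted p up to 0.0812) and Cox5a without DKO replicate 3 or either of WT replicates 1 and 3 (up to 0.0655).

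The machinery around the chain varied. Coq8a, a kinase-like protein of coenzyme Q synthesis, rose from 61.4, 81.4 and 77.3 CPM to 167, 169 and 242 CPM (log2 1.39 ± 0.17), and 5 of 13 genes of that pathway were called higher. That number was 9 without WT replicate 2 or DKO replicate 1 and 3 without WT replicate 3 or DKO replicate 3. Lyrm7, which matures the Rieske protein of complex III, rose from 2.57, 3.79 and 2.2 CPM to 11.5, 10.7 and 11.7 CPM (log2 1.99 ± 0.20). The 13 mitochondrially encoded mRNAs had a median difference of 0.40 and none called by edgeR or DESeq2, with 7 at an unadjusted p under 0.05. Of these 7, 6 had an edgeR adjusted p under 0.05 but lay below the fold change required. The 78 mitochondrial ribosomal proteins had a median of 0.37 and 2 calls (Mrps36 and Mrpl46), or 8 without WT replicate 2 and 5 without DKO replicate 1. The cytosolic ribosomal proteins went the other way by a small amount, with 78 of 83 negative and a median of -0.20. None was called by edgeR or DESeq2, with 43 lower and 1 higher at an unadjusted p under 0.05, the last being Rplp0 (log2 0.54). At an edgeR adjusted p under 0.05 there were 13 lower and 1 higher, all below the fold change required.

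Glycolysis had 6 of 21 tested genes higher, among them hexokinase 2 (Hk2, log2 1.03), Ldhb (log2 0.93) and the aldolase Aldoa (ENSMUSG00000030695.16), which went from 2207, 3062 and 2432 CPM to 3815, 4344 and 4082 CPM. Without WT replicate 2 the number was 10. Secreted products of fat cells had 8 of 23 called higher, among them angiotensinogen (Agt, log2 1.02), Rbp4 (log2 0.85) and Vegfa (log2 0.68), and 3 without WT replicate 3 and 5 without DKO replicate 3. Signalling genes moved less, with 3 of 31 called higher for insulin signalling and glucose transport and 3 higher and Pde7b lower of 27 for adrenergic receptors and cyclic AMP. Adra1a, an adrenergic receptor, was called higher (log2 1.81). Of 22 circadian clock genes 4 were called higher, Dbp, Per3 and Rorb among them, Per3 and Rorb being lost without WT replicate 3 or DKO replicate 3 (adjusted p up to 0.0838). Aldoa (up to 0.0852), Rbp4 (0.0529) and Pde7b (up to 0.0632) were lost without WT replicate 3 as well.

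**Figure D3:**
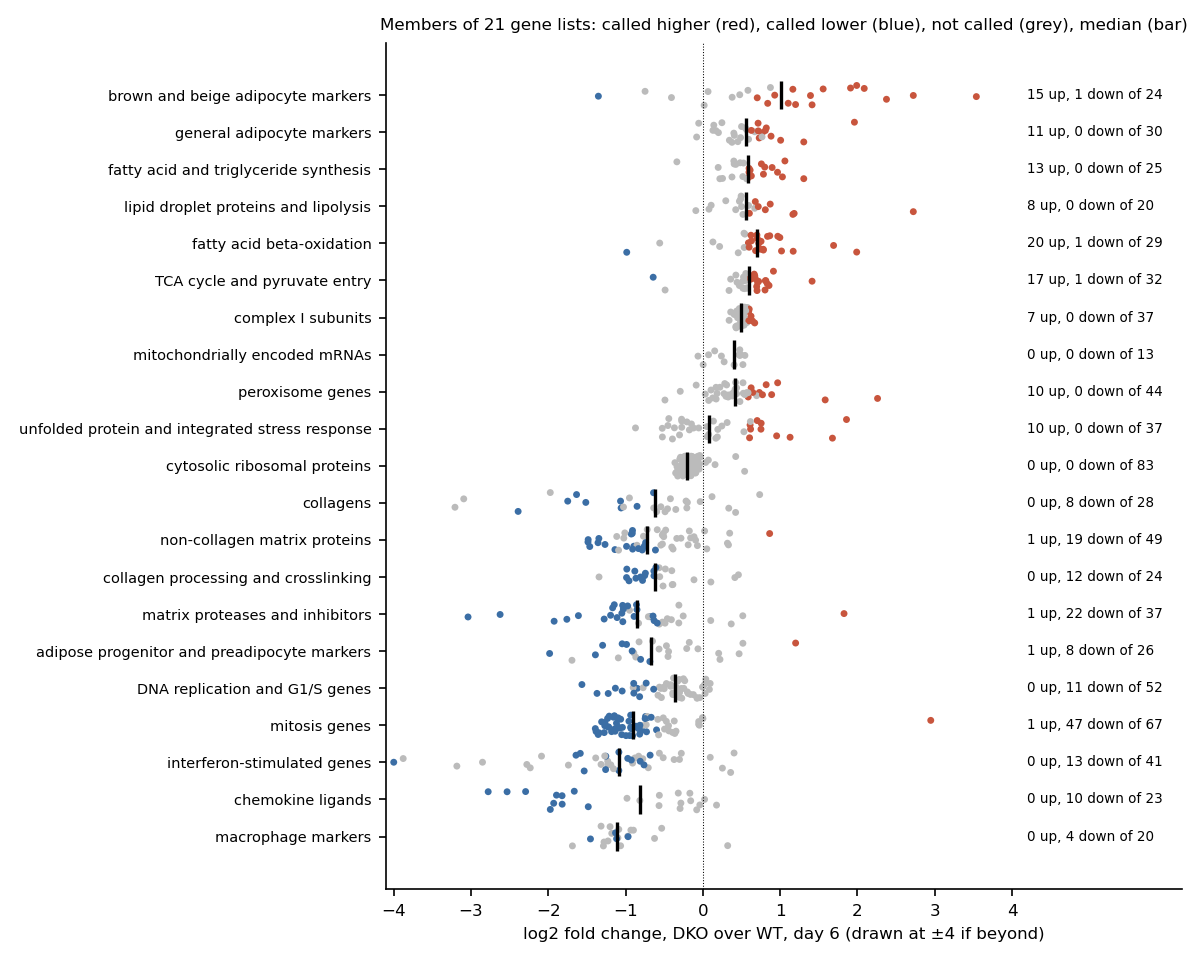
Log2 fold change, DKO over WT at day 6, of each tested member of 21 gene lists (points, red called higher, blue called lower, grey not called), with the median of each list as a bar and the counts at the right. Lists of fat oxidation, lipid and mitochondria lie right of 0, and lists of matrix, mitosis and interferon-stimulated genes lie left of it.

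Genes of the extracellular matrix were lower in DKO cells. Of 28 tested collagens 8 were called lower, and the median was -0.62. The fibrillar collagens led the list. Col1a1 was 1365, 1226 and 1427 CPM in WT and 426, 452 and 416 CPM in DKO libraries (log2 -1.63 ± 0.10, edgeR adjusted p = 0.00023). Col3a1, with the greatest loss in CPM of any gene, was 7921, 6799 and 8376 CPM in WT and 2009, 2971 and 1892 CPM in DKO libraries (log2 -1.75 ± 0.19, edgeR adjusted p = 0.00264). The groups lay far apart in both, and Col1a2 (log2 -1.51), Col5a1 (log2 -1.07), Col5a2 (log2 -0.85) and Col11a1 (log2 -2.39) were called too. The collagens of basement membrane and of the microfibrils moved less, with Col4a1 at -0.46, Col6a1 at -0.35 and Col15a1 at -0.20, none of them called. Of the 8 calls 6 held without any 1 library, and Col11a1 was lost without WT replicate 3 or DKO replicate 3 (adjusted p up to 0.0637).

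Non-collagen matrix proteins had 19 of 49 called lower and Npnt higher, with a median of -0.72. Postn, the matricellular periostin, fell from 1982, 1398 and 1647 CPM to 523, 780 and 520 CPM, and fibrillin 1 (Fbn1, log2 -0.91), Sparc (log2 -0.78), Nid2 (log2 -1.27) and Spp1 (log2 -1.48) were called lower. Fibronectin (Fn1) had a log2 difference of -0.54 and decorin (Dcn) of -0.18, and neither was called. Npnt (adjusted p = 0.0585), Sparc (0.0512) and Spp1 (0.061) were lost without WT replicate 3. The enzymes that fold and crosslink collagen had 12 of 24 called lower and none higher. The chaperone Serpinh1 fell from 438, 419 and 452 CPM to 252, 268 and 228 CPM (log2 -0.81 ± 0.09), and lysyl oxidase (Lox) from 1939, 1611 and 1652 CPM to 1074, 1073 and 959 CPM (log2 -0.74 ± 0.12).

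Matrix proteases and their inhibitors had the highest share of lower genes among the matrix lists, 22 of 37, with Timp4 higher and a median of -0.85. Mmp3, stromelysin, was 188, 172 and 204 CPM in WT and 33.4, 80.4 and 35 CPM in DKO cells (log2 -1.92 ± 0.37), and Mmp2, gelatinase A, was 477, 327 and 479 CPM against 186, 196 and 179 CPM (log2 -1.19 ± 0.15). Adamts5 (log2 -1.15), the fibroblast protease Fap (log2 -1.61), Ctsk (log2 -0.89) and the inhibitors Timp1 (log2 -0.97) and Timp2 (log2 -0.86) were called lower, so that proteases and inhibitors fell together. The number of proteases called lower was 13 without WT replicate 3 or DKO replicate 3 and 14 without WT replicate 1, and that of non-collagen proteins 12 without WT replicate 3. The calls of Mmp3 (adjusted p up to 0.0802), Timp1 (up to 0.127) and Timp4 (up to 0.117) were lost without WT replicate 3, and that of Mmp3 without DKO replicate 3 too.

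Markers of the fibroblast-like starting cells were lower as well, with 8 of 26 called lower, Dlk1 higher and a median of -0.67. Cd248, endosialin, fell from 191, 180 and 198 CPM to 69, 93.2 and 54.6 CPM (log2 -1.39 ± 0.18), and Bmper (log2 -1.04), Anxa3 (log2 -1.3), Pdgfrb (log2 -0.69) and Thy1 (log2 -0.91) were called too. Pdgfra, which defines adipose progenitors, was 458, 211 and 307 CPM in WT and 191, 141 and 126 CPM in DKO cells and did not pass (log2 -1.09 ± 0.31, edgeR adjusted p = 0.0501). Dlk1 was lost without DKO replicate 3 (adjusted p = 0.0539), Pdgfrb without WT replicate 1 or WT replicate 3 (up to 0.0513) and Thy1 without any 1 WT library (up to 0.110). Single libraries stood apart in contractile genes. Acta2 stood at 111 CPM in WT replicate 1 and at 12.1 and 14.3 CPM in the other WT libraries, and Tagln at 77.8 CPM there and at 9.80 and 11.6 CPM in the others, and neither was called. Only Myh11, a smooth muscle myosin, was called higher among the 26 contractile genes, and 3 were lower, or 5 without WT replicate 2 and 9 by DESeq2. Among TGF-beta and BMP genes 9 of 41 were called lower, Fstl1 (log2 -1.3), Grem1 (log2 -1.75), Tgfb1 (log2 -0.89) and Inhba (log2 -1.20) among them, and the BMP antagonist Chrdl1 was called higher (log2 1.19). The number lower was 2 without WT replicate 3 and 3 without DKO replicate 3, where Grem1 (adjusted p up to 0.0751) and Tgfb1 (up to 0.095) were lost. Fstl1 was lost without WT replicate 3 (0.061) and Inhba without DKO replicate 1 or DKO replicate 3 (up to 0.102).

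Genes of mitosis gave the most uniform decrease. Of 67 tested genes 47 were called lower, 65 had a negative difference and the median was -0.91. The residual levels were low in both genotypes. Top2a, a topoisomerase that untangles chromosomes, was 50.2, 36.9 and 49.4 CPM in WT and 22.8, 20.4 and 18.5 CPM in DKO cells (log2 -1.15 ± 0.14, edgeR adjusted p = 0.00344). Mki67, the Ki-67 antigen of cycling cells, was 41.4, 27.2 and 40.7 CPM against 17.2, 14.7 and 13.5 CPM. In both genes every DKO library was below every WT library. Cyclins A2 and B1 (Ccna2, log2 -1.09, and Ccnb1, log2 -0.91), the activator of the anaphase-promoting complex Cdc20 (log2 -1.27), the kinesin Kif11 (log2 -1.36) and the ubiquitin-conjugating enzyme Ube2c (log2 -1.27) were called. Only 17 were called lower when WT replicate 3 was left out, 29 when DKO replicate 3 was and 31 when WT replicate 1 was. Ube2c was lost without WT replicate 3 (adjusted p = 0.0545).

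Pttg1, securin, which holds separase inactive until anaphase, went against the rest of its list. It was 4.24, 4.12 and 4.34 CPM in the WT libraries and 32, 29.9 and 36.2 CPM in the DKO libraries (log2 2.95 ± 0.11, edgeR adjusted p = 5.97e-06). It was called without any 1 library and in every other alternative. DNA replication and G1/S genes had 11 of 52 called lower and a median of -0.36. Thymidine kinase Tk1 (log2 -1.22), Mcm5 (log2 -0.85) and Rrm2 (log2 -0.89) were called, and Pcna (log2 -0.25) and Mcm2 (log2 -0.47) were not. Of the replication calls 2 held without any 1 library, and the number was 2 without WT replicate 3 and 6 without WT replicate 1 or DKO replicate 3. Rrm2 was lost without WT replicate 1 or WT replicate 3 (adjusted p up to 0.0689). Cyclin D1 (Ccnd1) fell by 1.23 on the log2 scale.

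Many mitotic promoters carry CCAAT boxes with a CHR element, TTTGAA, at which the DREAM and MuvB complexes repress the gene in resting cells, and the sequences below show these elements in genes that fell. RefSeq promoters (GRCm38.p6, the NCBI name of mm10, 250 bases before to 50 after the start) were matched by gene for 10478 of the tested genes. Letters were searched on both strands. At least 1 CCAAT was found in 37.4% of all promoters, in 38% of those of tested genes and in 77.4% of the 62 promoters of the mitosis list, and TTTGAA in 17.9%, 12% and 61.3%. Both stood in 6.95% of all promoters and in 53.2% of the mitotic ones. Among the mitotic genes called lower that had a promoter 27 of 39 held TTTGAA and 23 both elements, and among those not called 8 and 7 of 16. Pttg1, the 1 gene called higher, held neither element. The 100 bases before the start are printed 5′ to 3′ in the direction of the gene, with matches to CCAAT and TTTGAA or their reverse complements (ATTGG and TTCAAA) in capitals. They come from chr11:99024190-99024289 (minus strand, Top2a), chr4:118437344-118437443 (minus, Cdc20), chr19:37376282-37376381 (plus, Kif11) and chr2:164769829-164769928 (plus, Ube2c). Positions count from the RefSeq start, and the windows of Cdc20, Ube2c and, further on, Asns reach into the gene as GENCODE annotates it.
Top2a: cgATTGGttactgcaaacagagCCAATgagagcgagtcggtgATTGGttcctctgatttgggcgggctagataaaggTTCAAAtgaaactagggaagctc
Cdc20: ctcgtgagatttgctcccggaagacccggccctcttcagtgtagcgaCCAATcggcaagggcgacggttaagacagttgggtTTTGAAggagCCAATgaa
Kif11: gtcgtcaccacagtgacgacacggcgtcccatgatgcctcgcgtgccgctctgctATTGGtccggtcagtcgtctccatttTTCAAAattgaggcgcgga
Ube2c: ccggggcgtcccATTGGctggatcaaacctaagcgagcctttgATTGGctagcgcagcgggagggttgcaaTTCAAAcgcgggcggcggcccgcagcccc
These 4 were chosen as the called mitotic genes of smallest p that hold both elements in this window. The same window of Pttg1, which was called higher, held neither. In the 4 genes shown the TTTGAA match lies downstream of at least 1 CCAAT match. A match of letters is a description and shows no bound factor.

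Interferon-stimulated genes and chemokines were lower in DKO cells, beside the lower macrophage marker sums given above. Of 41 tested interferon-stimulated genes 13 were called lower, and the median was -1.09. Oas1a, which makes the activator of RNase L, was 4.71, 4.30 and 6.47 CPM in WT and 1.90, 2.11 and 1.16 CPM in DKO cells (log2 -1.59 ± 0.26, edgeR adjusted p = 0.0073). Parp14 fell from 35.5, 27.1 and 47.6 CPM to 18.2, 13.7 and 14.1 CPM. The sensors Ifih1 (log2 -1.09) and Ddx58 (log2 -0.97) and the GTPases Gbp7 (log2 -1.26) and Igtp (log2 -0.93) were called lower.

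WT libraries differed widely in some of these genes. Ifit1 stood at 7.13, 1.93 and 22.3 CPM in WT and 0.646, 2.27 and 0.621 CPM in DKO cells, so that the groups overlapped and it was not called, and neither was Ifi27 (log2 0.25). The number called lower was 7 without WT replicate 3 or DKO replicate 3, and it reached 21 when DKO replicate 2 was left out and 26 when WT replicate 2 was. DESeq2 called 24. Parp14 (adjusted p = 0.0559) and Gbp7 (0.0634) were lost without DKO replicate 3, Ifih1 (0.0613) without WT replicate 3, Igtp (up to 0.0748) without either, and Ddx58 without any library but WT replicate 2 (up to 0.126). The interferon-stimulated response element, searched as GAAA repeated after a gap of any 2 bases, stood in 3.44% of all promoters, in 3.06% of those of tested genes and in 45.7% of the 35 promoters of the list, in 7 of 9 called genes and in 9 of 20 that were not called. Windows of 100 bases before the start are shown for 3 called genes, at chr5:120907526-120907625 (minus strand, Oas1a), chr3:142530236-142530335 (plus, Gbp7) and chr11:58199456-58199555 (plus, Igtp), with the fixed letters of each match in capitals.
Oas1a: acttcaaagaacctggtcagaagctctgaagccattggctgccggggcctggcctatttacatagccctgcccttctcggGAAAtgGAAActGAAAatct
Gbp7: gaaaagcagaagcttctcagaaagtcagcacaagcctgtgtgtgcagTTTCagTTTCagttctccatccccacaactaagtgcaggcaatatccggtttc
Igtp: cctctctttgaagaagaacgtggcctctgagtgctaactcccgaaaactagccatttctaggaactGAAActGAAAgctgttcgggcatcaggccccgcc
Oas1a holds 2 overlapping matches and the others 1 each. The 3 were chosen as the called genes of smallest p with a match in this window.

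Chemokine ligands had 10 of 23 called lower and a median of -0.82. Ccl11, eotaxin, was 6.66, 3.35 and 5.85 CPM in WT and 1.12, 0.906 and 0.704 CPM in DKO cells (log2 -2.53 ± 0.31, edgeR adjusted p = 0.00378). Ccl6 fell from 104, 172 and 201 CPM to 44.9, 17.9 and 34.3 CPM, and Ccl8 (log2 -1.82) and Ccl2 (log2 -1.89) were called, whereas Cxcl12 (log2 -0.17) was not. The number fell to 3 when WT replicate 3 was left out, to 4 when DKO replicate 3 was and to 6 when DKO replicate 1 was. In 1 fit over all days it was 5, and 6 with no filter on low counts. Ccl6 was lost without WT replicate 3 or DKO replicate 3 (adjusted p up to 0.0744) and Ccl2 without WT replicate 3 (0.0592).

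Of the macrophage markers 4 of 20 were called lower and 19 were negative, with a median of -1.11, and DESeq2 called 10. Lyz2, lysozyme, was 4046, 6530 and 6905 CPM in WT and 2914, 1436 and 2029 CPM in DKO libraries. Mrc1 was 1558, 2221 and 2344 CPM in WT and 1236, 348 and 925 CPM in DKO libraries, and was not called. The lysosomal protease Ctsb (log2 -0.74) and Mmp8 (log2 -3.04), which neutrophils and macrophages make, were called lower. The count of macrophage markers called was 1 without DKO replicate 3 or either of WT replicates 2 and 3, 6 without DKO replicate 2 and 11 without DKO replicate 1. MHC class I genes split, with Nlrc5, H2-M3, H2-Q4 and H2-Q7 called lower and H2-T22 and H2-T23 higher. None of the 4 lower calls was kept without WT replicate 3 (adjusted p up to 0.117), and Lyz2 (up to 0.0783), Ctsb (up to 0.0834) and Mmp8 (up to 0.0551) were lost without WT replicate 3 or DKO replicate 3. Genes of the H2 family share sequence, and reads shared between them make their values uncertain.

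A part of the integrated stress response was higher in DKO cells, although the list as a whole had a median of only 0.08. Of 37 tested genes 10 were called higher, among them Ppp1r15a (log2 0.75) and Phgdh (log2 0.61). Mthfd2, a mitochondrial folate enzyme, rose from 43.3, 49.9 and 45.4 CPM to 87.2, 83.0 and 98.2 CPM (log2 0.95 ± 0.09, edgeR adjusted p = 0.00164). Trib3, a pseudokinase that binds AKT, rose from 14.2, 19.7 and 16.4 CPM to 64.1, 41.0 and 76.9 CPM (log2 1.86 ± 0.25). Ddit3, which encodes CHOP, rose from 29.3, 34.9 and 29.9 CPM to 69.5, 54.0 and 82.3 CPM (log2 1.13 ± 0.15). Chac1 (log2 1.68), Asns (log2 0.60), Shmt2 (log2 0.70), Slc7a5 (log2 0.75) and Atf5 (log2 0.62) were called too.

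The chaperones of the endoplasmic reticulum did not rise with them. Hspa5 differed by 0.05, Hsp90b1 by -0.37, Calr by -0.44 and Pdia4 by -0.52, none of them called, and the sign of Hspa5 turned when scaled to library size alone (-0.05) or with limma-voom (-0.08). Over the whole list 12 genes were higher and 7 lower at an edgeR adjusted p under 0.05, and all of those lower lay below the fold change required. The number called higher was 7 when scaled to library size alone and 7 to 11 without 1 library, and Asns and Atf5 were lost without DKO replicate 3. The C/EBP-ATF response element, searched as TGATGNAA, stood in 3.97% of all promoters, 2.27% of those of tested genes and 16.7% of the 36 promoters of this list, in 3 of 9 genes called higher and 3 of 23 not called. It is shown for Asns, asparagine synthetase, in the 100 bases before its start (chr6:7693210-7693309, minus strand), with the fixed letters in capitals.
Asns: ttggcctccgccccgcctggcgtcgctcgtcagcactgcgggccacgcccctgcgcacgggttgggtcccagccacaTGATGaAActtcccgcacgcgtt

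Single genes gave some of the clearest separations. H2-T22, a nonclassical MHC class I gene on chromosome 17, was 1.88, 1.38 and 1.55 CPM in WT and 28.2, 27.4 and 22.7 CPM in DKO libraries (log2 4.02 ± 0.15, edgeR adjusted p = 6.01e-06). Kcnj15, a potassium channel, was 1.77, 1.31 and 1.36 CPM in WT and 16.0, 25.2 and 13.9 CPM in DKO libraries (log2 3.62 ± 0.27). Apoc1 (log2 2.58), the neurotensin receptor Ntsr2 (log2 2.99), Extl1 (log2 2.93) and Itih4 (log2 2.73) were also among the genes with the highest increases at 5 CPM or more. Among the greatest decreases were Naip5 (log2 -2.46), Nxpe5 (log2 -2.34), Pla2g7 (log2 -2.22) and Gm8797 (log2 -2.99), and the call of Pla2g7 was lost without DKO replicate 3 or either of WT replicates 2 and 3 (adjusted p up to 0.106). Galnt9, a glycosyltransferase, was 1.99, 4.15 and 2.09 CPM in WT, and the DKO libraries held at most 4 counts.

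Genes next to the targeted loci were read separately, in small sets, beside a share of 11.6% called over all tested genes. Within 1 Mb of Hmgn1, Kcnj15 (820 kb away) was the only call among 6 tested genes, and within 1 Mb of Hmgn2 Extl1 was called higher and Cd52, Stmn1, Paqr7, Tent5b and Selenon lower among 36 tested. Mouse DNA linked to a targeted allele and the absence of the proteins cannot be told apart for such genes.

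Calls among other chromatin genes are to be read beside the shares over all tested genes, 5.03% higher and 6.53% lower. Of 37 enzymes that write, erase or read acetylation and methylation at H3K27 and related sites Hdac7 and Hdac9 were called lower (5.41%), near that share. Of 16 tested HMG genes Hmgb3 was called higher, and Hmgb2 and Hmga2 lower beside Hmgn3 and Hmgn2, the last being a targeted gene. All of these but Hmgn2 were lost without 1 library, WT replicate 1 in each case, Hmga2 (adjusted p up to 0.0936), Hmgb2 (up to 0.0597), Hdac7 (up to 0.0753) and Hdac9 (up to 0.109) also without WT replicate 3. The AP-1 genes Jun (log2 0.09), Junb (log2 -0.48), Fos (log2 -0.86), Fosl1 (log2 0.30) and Fosl2 (log2 -0.19) were not called, and Jun and Fosl1 changed sign between settings, at -0.01 for Jun scaled to library size alone and -0.12 for Fosl1 without DKO replicate 2. Fos ranged from 10.5 to 30.0 CPM among WT and from 4.18 to 15.6 CPM among DKO libraries. Adamts5, Slc6a6 and Anxa3, which the study's text names, had log2 differences of -1.15, -0.58 and -1.3, and Ide had 1.29, Slc6a6 alone being not called.

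The other days show how the day 6 difference stands in the course of browning. In fits of each day on its own, 33 genes (0.218% of those tested, 0.0727% higher and 0.145% lower) were called for day 0, 51 (0.337%) for day 3 and 183 (1.24%) for day 9. The effect of genotype was then compared between days as an interaction. It differed between day 6 and day 0 for 567 of 16236 genes (3.49%), with 332 (2.04%) more positive at day 6 and 235 (1.45%) more negative (170 and 348 when scaled to library size alone), and between day 6 and day 3 for 51 of 15975 (0.319%). Between day 6 and day 9 it differed for 0 of 15410 genes by edgeR, with 847 at an unadjusted p under 0.05, for 27 by DESeq2 and for 41 with the replicate number as a block. A total of 457 of the 554 genes of the day 0 interaction with both estimates had the opposite sign at day 0. These genes were picked for a differing effect, and that choice favours opposite signs. Among all genes called at day 6 and tested at day 0, 57.1% of the higher and 56.8% of the lower ones kept their sign. Of all genes tested on both days, 50.9% were positive and 49.1% negative at day 0. At day 9, 697 of 721 higher genes (96.67%) and 902 of 919 lower genes (98.15%) kept their sign. Their median log2 differences at day 9 were 0.47 and -0.61, and 50.15% of all genes tested on both days were positive there. The day 6 difference was thus largely shared in direction by day 9, with fewer calls. The day 0 count was 29 without Day6 WT replicate 3, 92 without Day6 WT replicate 1 and 99 without Day6 DKO replicate 3, and 127 to 373 without Day0 WT replicates 1, 2 or 3, Day0 DKO replicates 2 or 3 or Day6 DKO replicate 2. The day 3 count was 6 without Day6 WT replicate 3 and ranged from 10 to 31 without Day3 WT replicates 1 or 2, any Day3 DKO replicate, Day6 WT replicate 1 or Day6 DKO replicates 1 or 3, and was 87 without Day6 DKO replicate 2.

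Some gene groups held more interactions against day 0 than the share over all tested genes, which was 2.04% more positive and 1.45% more negative. Against day 0, 18 of 32 genes of the TCA cycle and pyruvate entry, 14 of 37 complex I subunits, 12 of 29 genes of beta-oxidation and 5 of 27 brown and beige markers were more positive at day 6, and 12 of 45 matrix proteases and inhibitors and 8 of 34 collagens were more negative. Of 67 mitosis genes 3 were more negative and Pttg1 more positive, 1 of 25 genes of fatty acid and triglyceride synthesis was more positive, and none of 30 general adipocyte markers, 45 interferon-stimulated genes and 26 chemokine ligands was called. In lists of this size such low counts lie near the share over all genes and do not set these lists apart from it. The list counts rested on single libraries. When Day6 WT replicate 3 was left out, no gene of the TCA cycle, complex I, beta-oxidation or the brown and beige markers was called more positive, and 3 proteases and 3 collagens were more negative. Complex I also had none without Day6 WT replicate 1 or Day0 WT replicate 1, and 3 when scaled to library size alone, when the TCA cycle had 10. Col1a1 had a log2 difference of 0.33 at day 0 and -1.63 at day 6 (interaction -1.93, edgeR adjusted p = 0.00032), and Cpt1b went from -0.38 to 1.99 (interaction 2.41, edgeR adjusted p = 0.0146). The list medians of brown and beige markers were -0.04, 0.31, 1.02 and 0.72 at days 0, 3, 6 and 9. Those of beta-oxidation were 0.09, 0.53, 0.70 and 0.46, those of collagens 0.26, 0.05, -0.62 and -0.33 and those of mitosis genes -0.07, -0.15, -0.91 and -0.44, each farthest from 0 at day 6. The members tested differ slightly between days. Other lists were farthest from 0 on another day. General adipocyte markers had 0.26, 1.66, 0.56 and 0.41, lipid droplet proteins 0.76 at day 3 against 0.55 at day 6, fatty acid and triglyceride synthesis 0.65 against 0.59, and macrophage markers -1.17 at day 9 against -1.11.

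Levels over the days, scaled together over all 24 preadipocyte libraries, gave the direction of travel. Ucp1 did not pass 1.12 CPM in any library of days 0 and 3, and it reached means of 9.56 CPM (WT) and 50.9 CPM (DKO) at day 6 and 5.95 and 29.8 CPM at day 9. Cpt1b rose in WT cells from 0.701 CPM at day 3 to 40.2 CPM at day 6 and 110 CPM at day 9, and in DKO cells from 2.32 to 163 and 198 CPM. The DKO level at day 6 was thus above the WT level at day 9. Top2a went from 211 to 47.5 and 10.1 CPM in WT cells and from 190 to 22 and 6.28 CPM in DKO cells, and stayed above its day 9 level in both at day 6. Col1a1 had its lowest level at day 6 in both genotypes (1400.3 and 463 CPM) and was at 2960.5 and 1773 CPM at day 9.

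Pttg1 separated by genotype late. Its mean was 6.43 CPM (WT) and 10.8 CPM (DKO) at day 0 and 10.7 and 9.78 CPM at day 3, and then 4.42 and 35 CPM at day 6 and 3.23 and 35 CPM at day 9. Its interaction was called against day 0 (2.24, edgeR adjusted p = 0.00619) and day 3 (3.06, edgeR adjusted p = 2.82e-06). Cbr3, a carbonyl reductase, behaved alike, at 9.67 and 8.68 CPM at day 0 and 11 and 50.4 CPM at day 6. H2-T22 differed at every day, with log2 differences of 3.10, 3.60, 4.02 and 3.57, and so did Gm3375. Trib3 was at 17.5 CPM (WT) and 64.8 CPM (DKO) at day 6, 47.8 and 52.9 CPM at day 0 and 22 and 34.3 CPM at day 9.

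**Figure D4:**
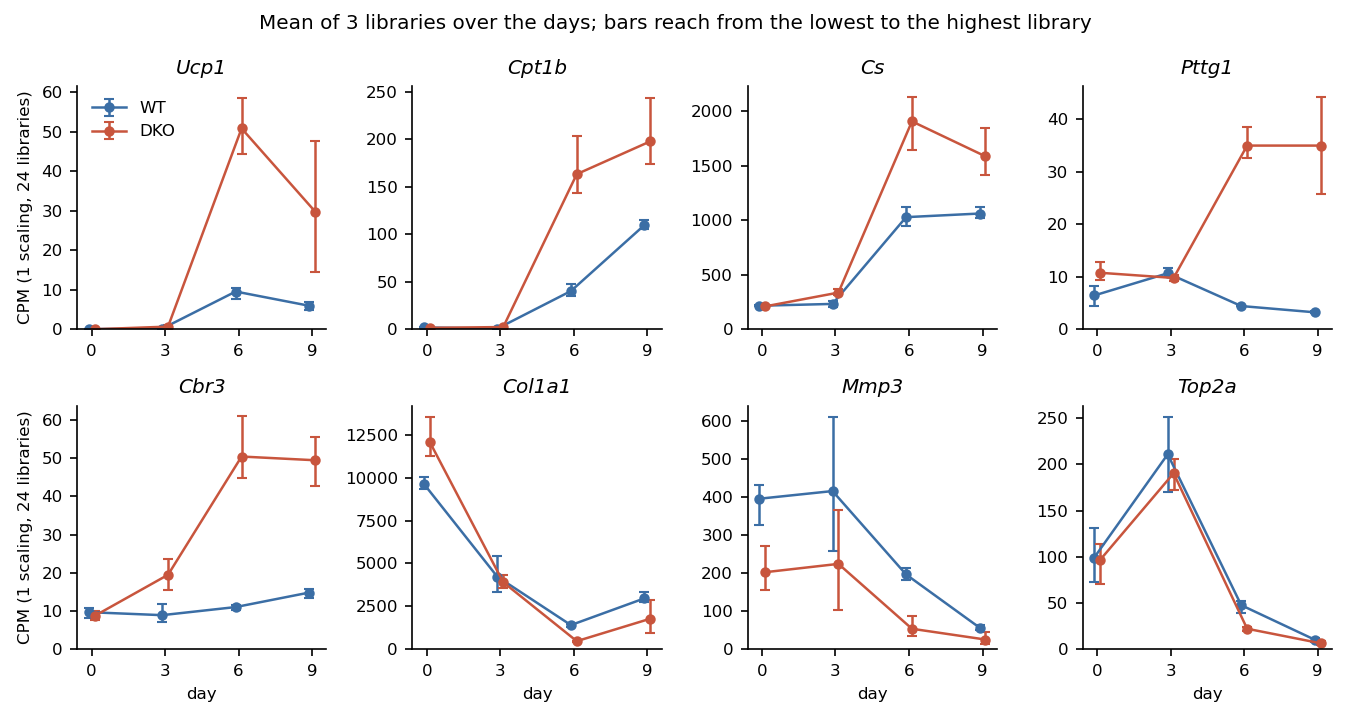
Mean CPM of 3 WT (blue) and 3 DKO (red) preadipocyte libraries at days 0, 3, 6 and 9 (horizontal axis) for 8 genes, on 1 scaling over 24 libraries, with bars from the lowest to the highest library. Ucp1, Cpt1b, Cs, Pttg1 and Cbr3 are higher in DKO cells at day 6, Col1a1, Mmp3 and Top2a are lower, and at days 0 and 3 the ranges lie close together for most of them.

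The day 6 calls were then placed on the time course of WT cells, from day 3 to day 9, which uses none of the day 6 libraries. Of 707 genes called higher at day 6 and tested in both, 534 rose over that time (75.5%) and 47 fell, and of 946 called lower 567 fell (59.9%) and 184 rose. Over all 14352 genes tested in both, 25.8% rose and 23.8% fell. From day 0 to day 9, when 53.3% of 15450 genes were called in WT cells, 521 of the genes called higher at day 6 rose and 547 of those called lower fell. Interferon-stimulated genes, lower in DKO cells, had 28 of 43 rising with time in WT cells, and all 21 macrophage markers tested rose as well. All 67 mitosis genes fell with time, Pttg1 among them. Across 13903 genes the DKO difference at day 6 and the WT change from day 3 to day 9 had Pearson's r of 0.235 and Spearman's rho of 0.414, a description across genes, which are not independent replicates and were all read in the same libraries.

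MEFs driven toward adipocytes gave a second cell type with its own libraries. At their last day, day 12, 1222 of 15319 genes were called (7.98%, of which 3.92% higher and 4.05% lower). Of 706 genes called higher in preadipocytes at day 6 and tested in both, 222 were called higher in MEFs at day 12 (31.4% of the day 6 list and 40.1% of the 554 of the MEF list) and 7 lower, and of 921 called lower 204 were lower (22.2%, and 44.1% of 463) and 2 higher. Of the 14144 genes tested in both, 3.92% were called higher and 3.27% lower in MEFs. Across 13903 genes Pearson's r of these differences was 0.629 and Spearman's rho 0.613, again as a description.

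The groups did not recur evenly in MEFs. General adipocyte markers had 22 of 31 called higher at day 12, brown and beige markers 9 of 24 with 2 lower, beta-oxidation 8 of 29 and mitosis genes 14 of 67 lower with Pttg1 higher (log2 2.97). Ucp1 had a log2 difference of 1.01, Cidea of 1.17, Scd1 of 1.04 and Col3a1 of -1.0 in MEFs. The interferon-stimulated genes had a median of -0.01 there, and the integrated stress response had 1 of 37 called higher. H2-T22 (log2 -0.05) and Gm8797 (log2 0.10), which differed at day 6 by 4.02 and -2.99, were not called in MEFs, and Ccl11 had -0.14 against -2.53. Hcn2, an ion channel, had 0.20 against 2.20. Stbd1, which anchors glycogen, had the opposite sign, -0.75 against 0.84, and its day 6 call was lost without WT replicate 3 (adjusted p = 0.0508).

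**Figure D5:**
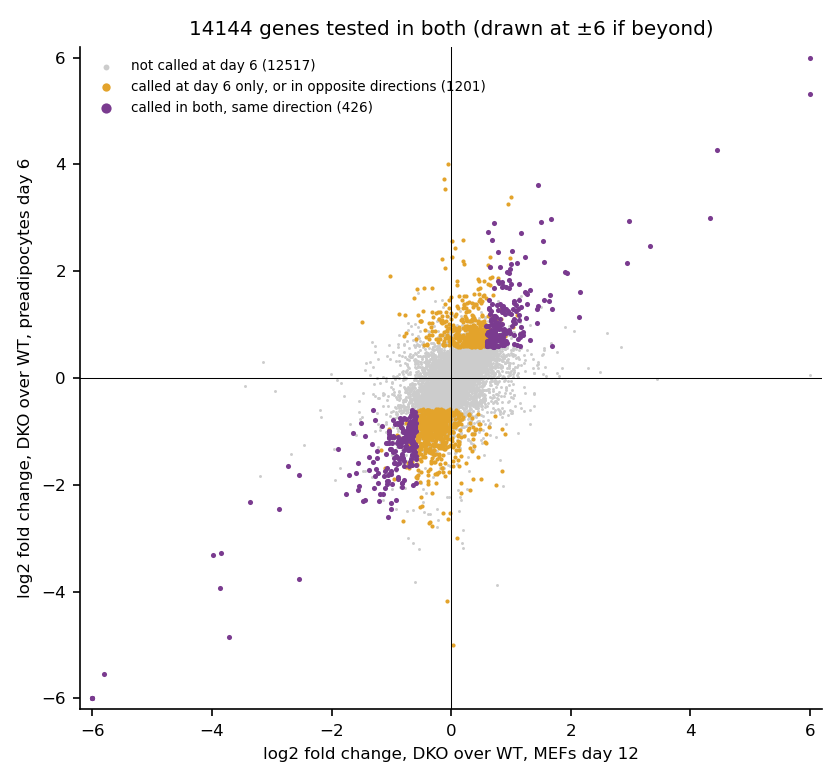
Log2 fold change, DKO over WT, in preadipocytes at day 6 (vertical axis) against that in MEFs at day 12 (horizontal axis) for 14144 genes tested in both, with values beyond 6 drawn at 6. The 426 genes called in both in the same direction lie in the upper right and lower left, and 1201 called at day 6 only or in opposite directions spread along the vertical axis.

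Very few genes differed in every comparison of DKO with WT cells. In MEFs 16 genes were called at day 0 (0.102% of those tested, 0.0383% higher and 0.0638% lower), 14 at day 4 (0.0905%, 0.0194% and 0.0711%) and 9 at day 8 (0.0595%, 0.0132% and 0.0463%). In all 8 comparisons, Gm3375 and Gm45104 were called higher and Hmgn2, Gm8730, Gm9625 and Gm10282 lower. At day 6 Gm8730 was 401, 456 and 423 CPM in WT and 10.3, 9.11 and 7.87 CPM in DKO cells, and Gm9625 was 90.6, 98.2 and 93.7 CPM against 6.29, 6.14 and 6.13 CPM. Gm10282 had no count in any DKO library, which made it at least 41.9-fold lower, set against 3 counts per library, and Gm45104 had none in any WT library and was at least 38.4-fold higher. Gm10182 and Gm45315, called lower in 7 of 8 comparisons, were at least 21.5-fold and 29.4-fold lower at day 6, and Gm21596, Gm14165 and Gm26782 were called lower in 6 or 7. Gm26782 was lost at day 6 without WT replicate 3 (adjusted p = 0.0604). Gm3375, Gm8730, Gm9625, Gm10182, Gm45315, Gm21596 and Gm14165 are annotated as processed pseudogenes, whose reads RSEM shares with the near-identical parent genes, and their values are uncertain.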

How the data were processed

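Gene-level expected counts were deposited by the authors in 1 table for the preadipocyte libraries and 1 for the MEFs. The submitters' processing notes name bcl2fastq 2.17, cutadapt 1.18, STAR 2.7.0f, RSEM 1.3.0 and the mm10 build. All 55450 gene identifiers matched GENCODE M21, which gave positions and gene types. The labels give polyA RNA, whereas the methods name a stranded total RNA kit. RSEM shares reads among near-identical genes, and 5.91 to 7.34% of the values of a day 6 library were not whole. Expected counts were rounded to whole numbers here.

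Genotypes were compared with edgeR 4.0.16 (R 4.3.3) after filterByExpr and TMM scaling, with a robust quasi-likelihood fit to the 6 day 6 libraries and genotype as the only term. Adjusted p-values are Benjamini-Hochberg values over all 14694 genes, and the SE of a log2 difference is its size divided by the square root of the F statistic. Days were compared as an interaction of genotype and day over 12 libraries. Both fits were tested on simulated data, with all libraries drawn independently from the means and spread of the day 6 WT libraries. The day 6 fit recovered 78 of 100 genes changed 2-fold and 100 of 100 changed 4-fold, and 4.81% of its calls were false. The interaction recovered 58 and 93 of 100, with 5.62% false, so that it can miss differences of that size. CPM at day 6 were scaled over the 6 libraries (21384326 to 27052150 counts each), and levels over days over 24 libraries. A bound on a fold against a group at 0 used 3 counts per library and covers counting error only. An exact permutation test of 3 against 3 libraries cannot go below 0.1. The alternatives were DESeq2 1.42.0, limma-voom 3.58.1 with quantile normalization, scaling to library size alone, other filters and fold change thresholds, 1 fit over all days, the replicate number as a block, and each library left out. Replicate libraries differed by more than sampling noise (chi-square per degree of freedom 16.1 to 35.6).

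The members and the 70 gene lists were chosen with earlier results of these data known. Named genes were the HMGN genes, genes the study's text names for bulk RNA-seq, members of the lists (called genes by smallest p first, the most abundant where none was called), and in each direction the 10 called protein-coding genes with non-overlapping groups and the largest fold change at 5 CPM or more, and the 6 with the largest difference in CPM. To these came the 5 genes of smallest p in each direction of an interaction, genes called alike in at least 6 of 8 comparisons, and the gene with the highest log2 difference within 1 Mb of each targeted gene. A few genes that the rule takes in are not reported here.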

Additional observations from a re-analysis of the deposited data

Results flagged for a closer look

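The effect of genotype differed between days by a test of the interaction, for 567 genes between day 6 and day 0 and for 51 between day 6 and day 3. The values below are the log2 difference between DKO and WT cells at day 6 minus that at the other day, for the 5 genes of smallest p in each direction.

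Against day 0, the carbonyl reductases Cbr3 and Cbr1, neighbouring genes of 1 family, had 2.35 and 1.25. The proteasome subunit Psmd8 had 1.23, the DNA end-binding protein Xrcc6 1.21 and securin, Pttg1, 2.24. Psmd8 was lower in DKO cells at day 0 (log2 -0.93) and differed by 0.26 at day 6. The collagen genes Col1a1 and Col1a2 had -1.93 and -1.82, C1qtnf6 had -1.68, Ssc5d had -1.58 and the pseudogene Gm9625 had -1.24.

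Against day 3, Pttg1 had 3.06, the ion channel gene Hcn2 2.20, Stbd1 1.59, the autophagy gene Gabarapl1 1.5 and Mthfd2 1.23. Stbd1 and Gabarapl1 were at -0.76 and -0.51 at day 3 and at 0.84 and 0.99 at day 6. Ggt5 had -2.03, Mrgprf -1.62, the pseudogenes Gm8730 and Gm9625 -1.5 and -1.31, and the actin regulator Vasp -0.886.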

How the results depend on the processing

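Of 229 genes named in the text 188 were called, 130 of these under every alternative that keeps 6 libraries and 106 under every alternative. Among 2977 pairs of a gene and an alternative 9 turned sign, all in genes that were not called. Scaled to library size alone, the log2 difference was -0.008096 for Jun, -0.08707 for Dio2 and -0.04835 for Hspa5, and with limma-voom it was -0.0809 for Hspa5. Without 1 library it ran from -0.1189 to 0.478 for Fosl1, from -0.06702 to 0.1438 for Dio2 and from -0.0005427 to 0.1111 for Hspa5. Dio2 was at -0.05387 without WT replicate 2 and at -0.03697 without DKO replicate 2.

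The 1699 calls at day 6 became 3172 with no fold change threshold and 726 when the absolute log2 value had to reach 1, and ran from 720 to 1896 without 1 library. With limma-voom 900 were higher and 830 lower, 52.0% higher against 43.5%. The day 0 interaction gave 1048 genes by DESeq2 and 29 to 723 without 1 library, that of day 3 577 and 6 to 87, and that of day 9 27 and 0 to 13. Of the day 6 calls 486 were called in the same direction in another comparison and 1030 with no fold change threshold there. The causes were not tested.

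With the replicate number as a block 1448 genes were called at day 6, 1342 of them shared with the fit without it, and the interactions gave 197 (day 0), 8 (day 3) and 41 (day 9). Under the block the day 0 interaction gave 7 genes of the TCA cycle, 1 of complex I, 7 of beta-oxidation, 2 brown and beige markers, 6 matrix proteases and inhibitors and 5 collagens. The number did not pair the genotypes at day 6, since deviations of same-numbered DKO and WT libraries correlated at 0.0124, -0.0766 and 0.00329. Between days 6 and 9 they correlated at 0.239 to 0.327 in DKO and 0.0839 to 0.334 in WT cells.

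There were 3 libraries a group, which limits the precision of every difference, and the count of day 6 calls fell most without WT replicate 3 (720) and DKO replicate 3 (884).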
